A study of Mus musculus with 3 samples.

Results

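The natriuretic peptide system of the mouse heart was followed through 9 genes on 3 two-colour Agilent arrays. These were the ligand genes Nppa, Nppb and Nppc, the receptor genes Npr1, Npr2 and Npr3, the protease genes Corin and Furin, and Ankrd1, which encodes a muscle protein that responds to load. Every gene probe whose gene name in the scanner files equals one of these names was taken, whatever its signal. That gave all 9 genes, of 28149 gene names on the array, through 16 of the 41174 gene probes. One further probe (A_52_P287739), which the files describe as a clone of natriuretic peptide receptor 3, carries a clone's name and was not taken.

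Each array compared RNA of 2 pooled hearts labelled Lrrc10-/- (Cy5, red) with RNA of 2 pooled hearts labelled Lrrc10+/+ (Cy3, green), from littermates of heterozygous matings on the C57BL/6 background. The product of Lrrc10 is a cytoskeletal protein of the cardiomyocyte with leucine-rich repeats. All hearts were taken at embryonic day 15.5 (the wild-type channel also carries a label with an adult age, which was not used), and no agent was given. Each array is 1 replicate, and the study's methods describe the 3 as biological replicates. The dyes were never exchanged, so dye and genotype cannot be told apart. The comparison asks which transcripts differ in the embryonic heart when Lrrc10 is lost.

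Atrial natriuretic peptide (Nppa) and B-type natriuretic peptide (Nppb) are hormones made by heart muscle cells. They are made first as precursors that the proteases corin and furin cut, and in the adult they rise when the wall is stretched. Both act on the guanylyl cyclase receptor encoded by Npr1, which makes cGMP. C-type natriuretic peptide (Nppc), made largely outside muscle, acts on the related receptor encoded by Npr2. The receptor encoded by Npr3 has no cyclase domain and clears the peptides from the circulation. In the embryo Nppa and Nppb are active in atrial and in trabecular ventricular muscle, and ventricular expression falls towards birth, so both are used as fetal and stress markers.

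Between 63.5% and 93.2% of gene probes were well above background in a channel, by the scanner software's flag, with array 3 the lowest in both. On all 3 arrays the probe of the targeted gene, Lrrc10, gave more signal in Cy5, the channel labelled Lrrc10-/-, with log2 ratios of 3.99, 4.78 and 4.45. Its processed signals in Cy5 were 6294, 8521 and 12637 on arrays 1, 2 and 3. In Cy3, the channel labelled wild type, they were 281, 237 and 200. The median Cy3 signals over all gene probes were 180, 229 and 141. A loss of the Lrrc10 transcript would give the opposite order of channels. Whether this probe lies in the deleted part was not settled here, and the cause of the order seen was not tested. The channels are therefore named by their labels throughout. If the labels had been exchanged, every direction below would turn. Heart muscle markers were bright on these arrays: the probes of Actc1, Myl2 and Myl7, which encode sarcomere proteins, were at the scanner's limit in both channels on at least 2 arrays.

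Probe positions matter here because several genes are read by more than 1 probe. Positions on the genome are mm9, as in the scanner files, and positions in the transcript are those the files give for the first base of the 60-base probe. The probe of Nppa at position 192 (A_51_P361340, chr4:147375047-147375209, + strand) covers 60 bases of transcript over 163 bases of genome, so it bridges 103 bases of intron and reads spliced RNA. The probe of Nppb at position 166 (A_52_P559955, chr4:147360064-147360123) holds the start codon, and that at position 397 (A_51_P426195, chr4:147360489-147360548) reads the part of the precursor around the cut. The Nppb probe at 397 ends 14498 bases before the Nppa probe at 192 begins, on the same strand, so the neighbouring genes have separate probes. The sequences are shown because the values of both hormones rest on them. Capitals mark the start codon in the first Nppb probe and, in the second, 4 codons that match the recognition motif of furin.
Nppa at 192: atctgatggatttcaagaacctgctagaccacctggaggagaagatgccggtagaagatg
Nppb at 166: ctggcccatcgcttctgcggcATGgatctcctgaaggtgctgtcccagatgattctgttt
Nppb at 397: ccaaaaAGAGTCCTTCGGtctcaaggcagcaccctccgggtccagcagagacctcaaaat

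The single Nppc probe, at position 459 (A_51_P401894, chr1:88566235-88566294, - strand), reads the very end of the coding sequence. Capitals mark the 17 codons of the disulfide-closed ring through which natriuretic peptides bind their receptors.
Nppc at 459: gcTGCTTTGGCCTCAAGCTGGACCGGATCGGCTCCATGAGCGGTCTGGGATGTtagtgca

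The probes of the cyclase receptors Npr1 and Npr2 are shown together because 2 of them cover the same stretch of these paralogs. Npr1 at position 3066 (A_51_P182693, chr3:90259171-90259664, - strand) bridges 434 bases of intron, and Npr2 at position 2900 (A_52_P489373, chr4:43661226-43661285, + strand) lies within 1 run of genome. They overlap over 40 bases when set against each other without gaps, and 34 of these, or 85%, are identical. Capitals mark the identical bases. Whether transcript of one gene was caught by the other gene's probe was not tested.
Npr1 at 3066: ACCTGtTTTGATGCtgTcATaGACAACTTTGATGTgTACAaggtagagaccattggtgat
Npr2 at 2900: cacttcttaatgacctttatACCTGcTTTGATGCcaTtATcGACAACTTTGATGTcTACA

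The remaining probes are given by position alone. The other Nppa probe starts at position 676 (A_52_P580582, chr4:147376024-147376083). Npr2 is also read at 864 (A_52_P565549, chr4:43645671-43646403, over 673 bases of intron) and at 3433 (A_51_P518940, chr4:43663890-43663949). Npr3 is read at 1575 (A_51_P356883, chr15:11774943-11775002), 2039 (A_52_P400798, chr15:11774479-11774538) and 6581 (A_51_P247184, chr15:11769937-11769996). Corin has 1 probe at 3779 (A_51_P135268, chr5:72692288-72692347), and Ankrd1 has 1 at 1351 (A_52_P120803, chr19:36186809-36186868). The files list Furin at 4198 (A_51_P400107, chr7:87534108-87534167, - strand) and at 1965 of a separate clone (A_52_P884435, chr7:87551118-87551177, + strand). These 2 probes lie 16950 bases apart on opposite strands, so the second does not read the same strand as the first.

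No member probe passed the test across all probes. Of 16 member probes, 15 were bright enough to be tested, 2 of these were saturated in both channels on at least 2 arrays and have no fold, and 13 remained. Of these 13, none was higher and none lower in the Lrrc10-/- channel at an adjusted p of 0.05 (limma with Benjamini-Hochberg adjustment over 28328 probes). Over all tested probes, 1.39% were called higher and 0.00353% lower. Without adjustment 2 of the 13, Nppa at 192 and Npr3 at 1575, had p under 0.05, both lower, beside 13.3% of all tested probes in either direction, 9.07% in the higher and 4.26% in the lower. The mean log2 ratio was below 0 for 6 and above 0 for 7 probes. Of the 13, 2 were below 0 on all 3 arrays and 0 were above 0 on all 3, beside 17.4% and 19.1% of all tested probes.

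**Figure D1:**
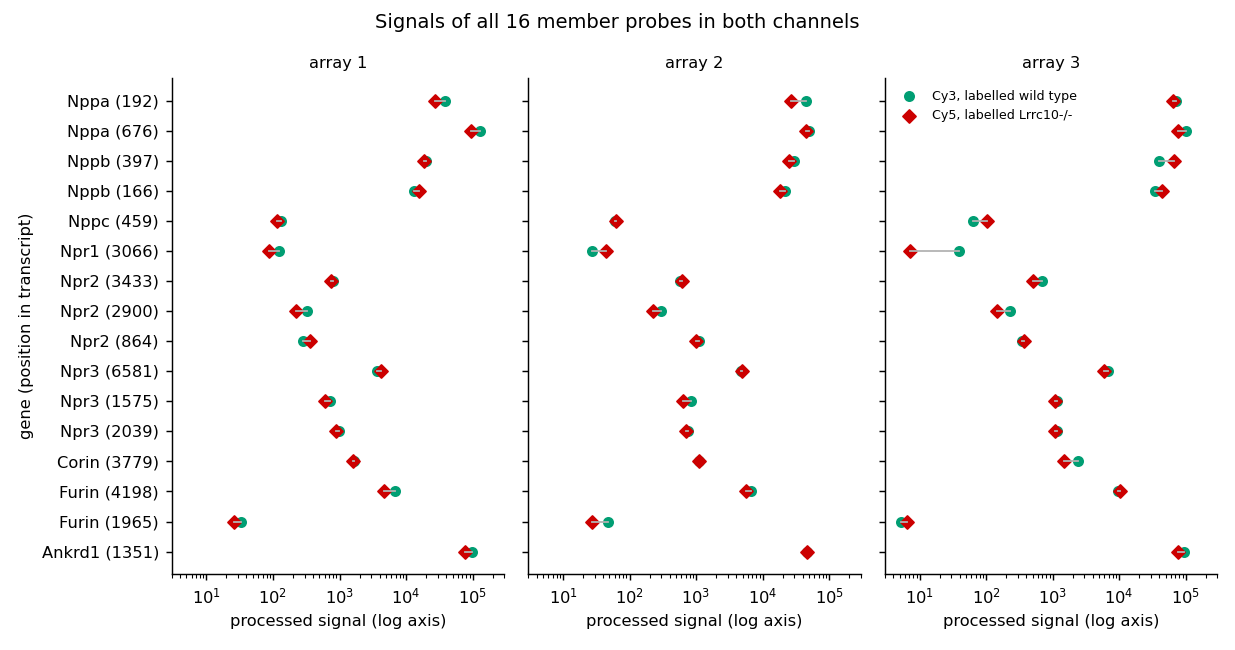
Processed signal (log axis, the scanner software's unit) of the 16 member probes in Cy3 and Cy5 on each array, with a line joining both channels of a probe. The channels lie close together for most probes, Npr1 on array 3 is the widest gap (39.8 in Cy3, 7.29 in Cy5), and signals of different probes are not comparable as levels.

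Nppa was bright in both channels and lower in the Lrrc10-/- channel on 2 of 3 arrays, with no call. This direction opposes the one the study gives for Nppa in the embryonic heart. The study drew on its arrays and also on quantitative real-time PCR, a separate measure that was not examined here. With the channel labels exchanged, Nppa would be the higher in Lrrc10-/- hearts. At position 192 the processed signals were 27330 in Cy5 and 38570 in Cy3 on array 1, 26521 and 45290 on array 2, and 63755 and 72437 on array 3. Cy5 was the dimmer channel in the software's processed signals on all 3 arrays. After loess normalization within each array, which the tests use, the log2 ratios of Cy5 over Cy3 were -0.42, -0.70 and 0.01. The mean was -0.37 ± 0.36 (SD, n = 3), a 1.29-fold lower signal, with a 95% interval from -0.74 to -0.00197 and an adjusted p of 0.373 (limma). The software's own log2 ratios were -0.50, -0.77 and -0.18, so on array 3 the ratio was below 0 by the software and at 0 after loess.

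The 10 spots that carry this Nppa probe on each array give its technical spread, shown first after loess. On array 1 none of the 10 was saturated in either channel, and their log2 ratios ran from -0.71 to 0.01 (SD 0.23). On array 2, 3 of 10 spots were within 1% of the scanner's limit in Cy3, and the ratios ran from -0.98 to -0.53 (SD 0.19). On array 3, 4 of 10 spots were saturated in Cy5, and the ratios ran from -0.05 to 0.12 (SD 0.05). A saturated Cy3 spot makes a ratio too high and a saturated Cy5 spot makes it too low. Over unsaturated spots alone the mean ratios were -0.42 (10 spots), -0.74 (7 spots) and 0.02 (6 spots), close to those over all spots. After loess the spots of arrays 1 and 2 thus lay mostly or wholly below 0 and those of array 3 around it. By the software's own ratios every spot of this probe was below 0 on each array. Their SD was smaller, at 0.06, 0.08 and 0.03 on arrays 1, 2 and 3.

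The Nppa probe at 676 cannot add a ratio. All 10 of its spots were saturated in both channels on each of the 3 arrays, with raw signals from 64639 to 65525 over channels and arrays against limits of 65227 to 65526. Its computed log2 ratios of -0.33, -0.12 and -0.16 set 1 limit against another and have no direction. The Nppa probes can therefore not be compared with each other.

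**Figure D2:**
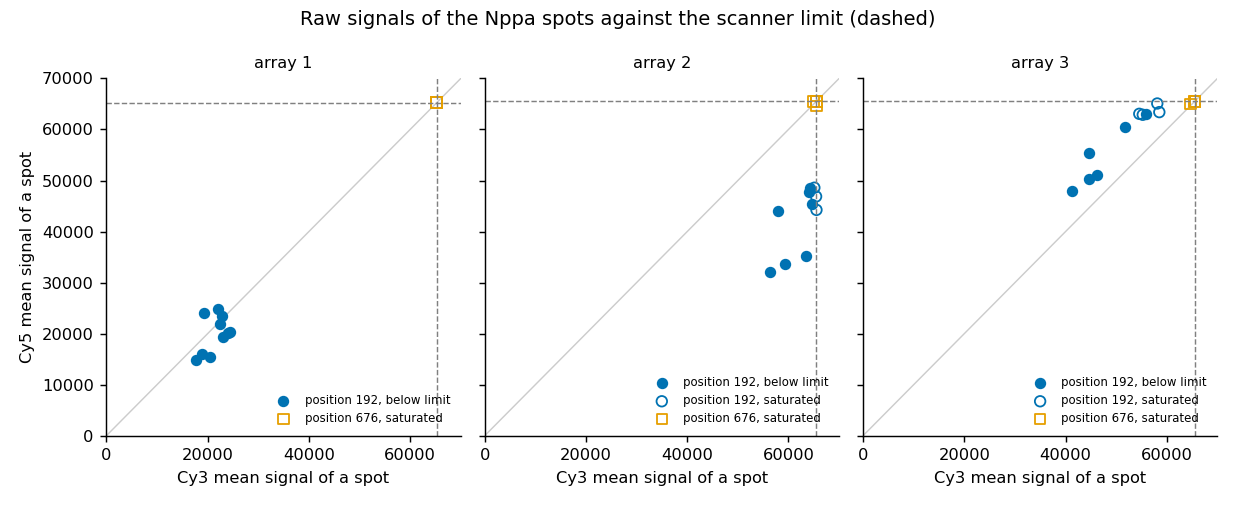
Mean raw signal of each Nppa spot in Cy5 against Cy3 on the 3 arrays, with open symbols for spots saturated in at least 1 channel, dashed lines at the scanner's limits and a grey line of equality. All spots at position 676 sit in the corner where both channels are at the limit, and the spots at position 192 approach the Cy3 limit on array 2 and the Cy5 limit on array 3.

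Array 2, where Nppa was lowest, also stood apart in markers of another organ. Of 10 liver genes, 6 had a tested probe, and their summed processed signal was 3574 in Cy5 and 30488 in Cy3 on array 2, against 26377 and 15790 on array 1 and 4457 and 3267 on array 3. Afp, which encodes the fetal serum protein alpha-fetoprotein, had log2 ratios of 0.82, -5.15 and 0.77. The part of this in the Nppa ratio was not tested. Without array 2 the mean log2 ratio of Nppa was -0.20, and without array 1 it was -0.35, with adjusted p of 0.816 and 0.873 (limma). Without array 3 it was -0.56 with an adjusted p of 0.0300, the only setting in which Nppa was called. In that setting 248 of 28112 probes were called lower, against 1 of 28328 with all 3 arrays.

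Nppb was not called at either of its probes. At position 166, where no spot was saturated, the processed signals were 15501 in Cy5 and 13180 in Cy3 on array 1, 18321 and 22016 on array 2, and 44544 and 34792 on array 3. The log2 ratios were 0.53, -0.03 and 0.53, with the Lrrc10-/- channel higher on 2 of 3 arrays. Their mean of 0.34 ± 0.32 (SD, n = 3), or 1.27-fold, had a 95% interval from -0.01 to 0.69 and an adjusted p of 0.385 (limma). Array 2 was the low one, as for Nppa.

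At position 397 the Nppb signals were 18682 in Cy5 and 19925 in Cy3 on array 1, 25213 and 29412 on array 2, and 65715 and 39961 on array 3. The log2 ratios were -0.23, -0.20 and 0.86, and on array 3 the Cy5 spot was saturated, so 0.86 is a lower limit. The mean was 0.14 ± 0.62 (SD, n = 3) with an adjusted p of 0.820 (limma). With the saturated spot left out, or without array 3, the mean of the other 2 arrays was -0.21, so the sign of this probe rests on array 3. Between the Nppb probes (397 minus 166) the difference was -0.75, -0.17 and 0.33 on the 3 arrays, a mean of -0.20 ± 0.54. An exact two-sided sign-flip permutation test gave p = 0.75, where 3 arrays cannot go below 0.25.

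Nppc was dim and was not called. Its processed signals were 117 in Cy5 and 131 in Cy3 on array 1, 63.2 and 61.0 on array 2, and 104 and 62.9 on array 3, all well above background by the flag. The log2 ratios of -0.04, 0.20 and 0.09 averaged 0.08 ± 0.12 (SD, n = 3), with a 95% interval from -0.19 to 0.36 and an adjusted p of 0.805 (limma). The offset of 50 added before the logarithm damps the ratio of so dim a probe, and the software's own log2 ratios were -0.17, 0.05 and 0.72 (mean 0.20). In the software's processed signals Cy5 was clearly the brighter channel on array 3 alone, whereas after loess the largest ratio was that of array 2. In whole hearts, fewer cells of a type and less RNA per cell cannot be told apart.

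None of the 7 receptor probes was called. Npr1, the receptor for both heart hormones, was near the lower end of detection: its signals were 87.9 in Cy5 and 125 in Cy3 on array 1, 44.0 and 27.0 on array 2, and 7.29 and 39.8 on array 3, where Cy5 was not well above background. The log2 ratios were -0.24, 0.37 and -0.06 (mean 0.02 ± 0.31, SD, n = 3, adjusted p 0.965 by limma). The software's own ratios, with no offset to damp low signals, were -0.51, 0.71 and -2.45. The direction differed between arrays, and the mean turned sign with the processing.

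Npr2, the receptor for C-type natriuretic peptide, was read by 3 probes. At 864 the signals were 358 in Cy5 and 285 in Cy3 on array 1, 995 and 1125 on array 2, and 371 and 343 on array 3, and the log2 ratios were 0.44, -0.04 and 0.12. At 2900 the signals were 225 in Cy5 and 327 in Cy3, 222 and 292, and 146 and 226, with Cy5 the dimmer on every array. The log2 ratios were -0.05, -0.10 and -0.10 after background correction with the offset and loess, and -0.54, -0.40 and -0.63 by the software. At 3433 the signals were 751 in Cy5 and 799 in Cy3, 622 and 570, and 514 and 696, and the log2 ratios were 0.30, 0.32 and -0.20. The means after loess at 864, 2900 and 3433 were 0.17 ± 0.25, -0.08 ± 0.03 and 0.14 ± 0.29 (SD, n = 3), with adjusted p of 0.622, 0.801 and 0.711 (limma). Array 2 was the brightest in both channels at position 864, whereas at 2900 and 3433 it was not. The probe at 2900 shares 34 of 40 overlapping bases with the Npr1 probe, and its log2 ratio minus that at 864 was -0.49, -0.06 and -0.21 on the 3 arrays (mean -0.25 ± 0.22). The ratio at 3433 minus that at 2900 was 0.35, 0.42 and -0.10 (mean 0.22 ± 0.28), so array 3 went the other way. Exact two-sided sign-flip permutation p were 0.25 and 0.5, and 0.583 and 0.7 after adjustment over 7 pairs.

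Npr3, the clearance receptor, was read by 3 probes, with means on both sides of 0. At 1575, the most 5′ of them, the signals were 609 in Cy5 and 718 in Cy3 on array 1, 638 and 830 on array 2, and 1075 and 1175 on array 3. The log2 ratios were -0.39, -0.53 and -0.12, all below 0, with a mean of -0.34 ± 0.21 (SD, n = 3), a 95% interval from -0.65 to -0.04, an unadjusted p of 0.0310 and an adjusted p of 0.317 (limma). At 2039 the ratios were 0.01, 0.04 and -0.05, with a mean of 0.00 ± 0.04. At 6581, in the 3′ part of the transcript, they were 0.37, 0.23 and -0.08, with a mean of 0.17 ± 0.23 and an adjusted p of 0.612.

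The probes at 6581 and 1575 differed by 0.76, 0.75 and 0.04 on the 3 arrays, a mean of 0.52 ± 0.41 (SD, n = 3), with the 3′ probe higher each time. The exact two-sided sign-flip permutation p was 0.25, the smallest that 3 arrays allow, and 0.583 after Benjamini-Hochberg adjustment over the 7 probe pairs compared. As a description, the mean difference was larger than that of 91.8% of 12144 probe pairs of one gene, over 6222 genes with several tested probes, whose median absolute difference was 0.18. The other 6 member pairs lay between 0.03 and 0.34 in size. Their shares of smaller pairs ran from 9.26% to 77.5%. A clone described as natriuretic peptide receptor 3, which the rule left out, had ratios of 0.25, 0.42 and 0.12 (adjusted p 0.405 by limma). Its probe (chr15:11832733-11832792, - strand) lies 5′ of the probe at 1575 on the genome, so its ratios do not extend the order of a higher 3′ probe.

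**Figure D3:**
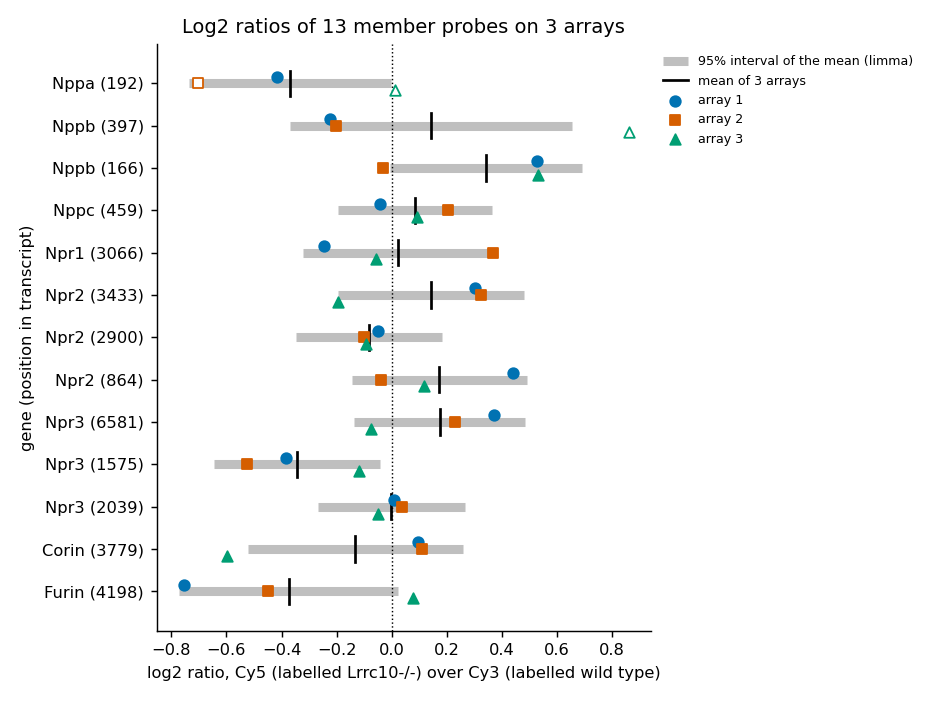
Log2 ratio of Cy5 over Cy3 after loess for the 13 member probes with a fold, with a symbol per array, a black tick at the mean and a grey bar for the 95% limma interval; open symbols mark arrays on which at least 1 spot of the probe was saturated. Only the intervals of Nppa at 192 and Npr3 at 1575 end below 0, and the 3 probes of Npr3 spread from -0.34 to 0.17.

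The proteases that cut the precursors showed no call either. Corin, the membrane protease that cuts the Nppa precursor, had signals of 1569 in Cy5 and 1656 in Cy3 on array 1, 1090 and 1110 on array 2, and 1465 and 2433 on array 3. Its log2 ratios were 0.09, 0.11 and -0.60, so array 3 alone was low. The mean was -0.13 ± 0.40 (SD, n = 3) with an adjusted p of 0.775 (limma), and it was 0.10 without array 3.

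Furin, a protease of the secretory pathway that cuts many precursors, had signals at 4198 of 4596 in Cy5 and 6806 in Cy3 on array 1, 5607 and 6652 on array 2, and 10173 and 9669 on array 3. The log2 ratios were -0.75, -0.45 and 0.08, lower in the Lrrc10-/- channel on 2 of 3 arrays as for Nppa. The mean of -0.37 ± 0.42 (SD, n = 3), or 1.30-fold lower, had a 95% interval from -0.77 to 0.02 and an adjusted p of 0.401 (limma). Without array 3 the mean was -0.60 with an adjusted p of 0.0206 (limma), so Furin and Nppa were the member probes called in that setting. Calls were more frequent over all probes there, with 1540 of 28112 higher and 248 lower, against 395 and 1 of 28328 on all 3 arrays. Array 1 was read with another scanner and software version than arrays 2 and 3. Furin was -0.75 on array 1 and -0.18 over arrays 2 and 3, and Nppa was -0.42 and -0.35. The Furin probe on the opposite strand was not tested: it was well above background in both channels on array 1 only and in neither on array 3, with signals of 26.3 in Cy5 and 33.6 in Cy3, 26.9 and 47.8, and 6.58 and 5.20.

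Ankrd1, whose protein is found in the sarcomere and the nucleus and which is raised together with Nppa and Nppb in loaded muscle, was below the scanner's limit on array 1 alone. There the processed signals were 76809 in Cy5 and 97704 in Cy3 and the log2 ratio was -0.41, with 1 spot and no replicate. On arrays 2 and 3 both channels were saturated, so no fold, direction or test is given for this gene.

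The study kept probes that moved the same way by 1.2-fold or more on each of its 3 arrays, with a minimum processed signal of 20 and a threshold of 0.05 on p. That p came from a step in the EDGE3 software which was not rerun, so the scanner software's p on each array was used in its place. By this modified rule, on the software's ratios, none of the unsaturated member probes was past it in either direction, beside 2.09% of 30272 probes higher and 0.126% lower. Without the p criterion 1 member probe, Npr2 at 2900, was past it in the lower direction, beside 1.69% of all probes lower and 3.58% higher. This probe had a mean of -0.08 after loess with the offset and -0.52 by the software, the second largest gap between these scales after Npr1 among the 13.

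Of 23 other genes of natriuretic peptide and cGMP signalling, 19 had a tested probe, 10 were above 0 and 9 below, and none passed the test in either direction (limma, adjusted p), with 2 higher and 0 lower at an unadjusted p under 0.05. Their median log2 ratio was 0.01, beside 0.02 over all 15349 genes tested, of which 247 were called higher and 1 lower, 1580 were higher and 767 lower at an unadjusted p under 0.05, and 53.3% were above 0. Gucy2c, the intestinal guanylyl cyclase receptor, was the highest, with log2 ratios of 0.90, 0.27 and 1.09 (mean 0.75 ± 0.43, adjusted p 0.117). Rgs2, a G-protein regulator that cGMP-dependent kinase activates, followed with 0.33, 0.54 and 1.33 (mean 0.73 ± 0.53, adjusted p 0.174). Both were above 0 on all 3 arrays. Pcsk6, a protease known to activate corin, was the lowest, with 0.05, -0.07 and -0.79 (mean -0.27 ± 0.46). Pcsk7, a relative of furin, gave 0.22, 0.21 and 0.24, the smallest spread of the 19, with an adjusted p of 0.447.

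**Figure D4:**
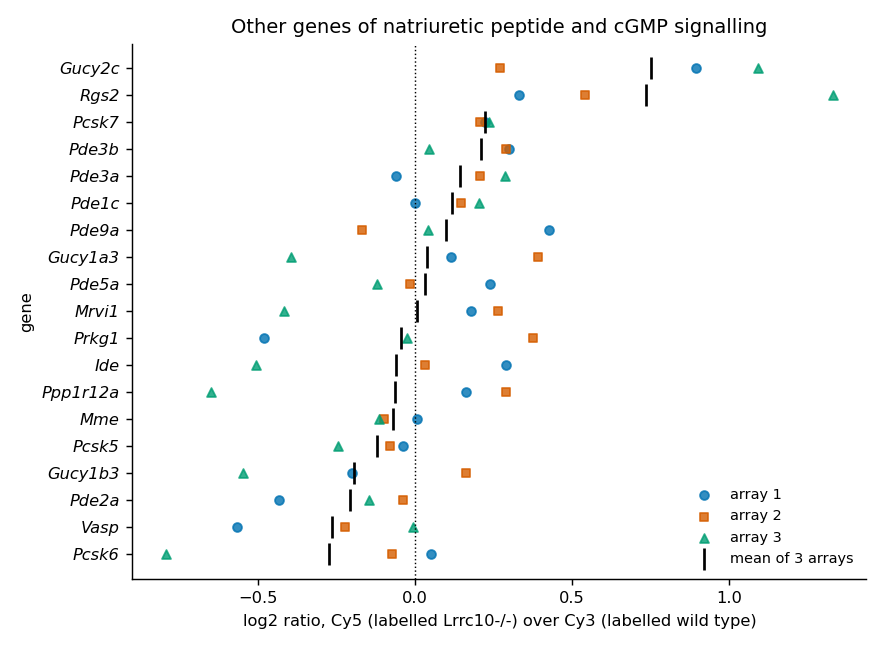
Log2 ratio of Cy5 over Cy3 on each array (coloured symbols) and the mean (black tick) for the 19 tested genes of natriuretic peptide and cGMP signalling that are not members, ordered by mean. The means run from -0.27 (Pcsk6) to 0.75 (Gucy2c), and for most genes the 3 arrays lie on both sides of 0.

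Of 25 regulators of natriuretic peptide transcription, all were tested and none passed, with 10 above 0, a median of -0.03, and 2 higher and 1 lower at an unadjusted p under 0.05. Gata4, a zinc-finger activator of Nppa and Nppb, was the highest (1.14, 0.51 and 0.22, mean 0.62 ± 0.47, adjusted p 0.211), and Mef2a, a muscle transcription factor, was the lowest (mean -0.31 ± 0.16, adjusted p 0.341). Tbx5 and Nkx2-5, which act together on the Nppa promoter, had means of -0.10 ± 0.21 and -0.13 ± 0.14. Of 25 load-responsive and fetal genes, 20 were tested and 5, Myh7, Actc1, Csrp3, Fhl1 and Tnni1, were measured by saturated probes alone. None of the 20 passed (2 higher and 1 lower at an unadjusted p under 0.05), 11 were above 0 and the median was 0.03. Xirp2 (mean 0.70 ± 0.75) and Tagln, a smooth muscle actin-binding protein (mean -0.49 ± 0.09, adjusted p 0.132), were the extremes.

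Marker lists of the chambers and of other cells gave no call, with 0 to 1 genes of a list higher and 0 to 2 lower at an unadjusted p under 0.05. The atrial genes Myl7 and Myl4 and the ventricular gene Myl2 were measured by saturated probes alone and are not in the medians below. Atrial markers had a median of 0.01 over 7 of 10 genes, from Bmp10 (-0.12) to Sln, the atrial calcium-pump regulator (0.84 ± 0.66, adjusted p 0.187). Ventricular markers had 0.05 over 8 of 10, from Irx5 (-0.34) to Mycn (0.44). Endocardial and endothelial markers had -0.08 over 10, from Tie1 (-0.44) to Egfl7 (0.57). Mesenchymal markers had 0.00 over 10, from Col1a2 (-0.51) to Tcf21 (0.43). Epicardial markers had -0.07 over 6, from Msln (-0.19) to Upk3b (0.07). Macrophage markers had -0.10 over 8, from Cd68 (-0.28) to Csf1r (0.90). Red cell markers had -0.24 over 5 of 7, from Alas2 (-0.46) to Hbb-b1 (0.35 ± 0.92). Hbb-b1 gave -0.33, -0.02 and 1.40 on the 3 arrays, and 3 of its 4 probes were saturated. The liver list ran from Afp (mean -1.19 ± 3.43) to Fgb (-0.19), with array medians of 0.62, -1.66 and 0.13.

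The genes whose 3 ratios lay nearest to those of Nppa at 192 were Nme4, Col16a1 and Timm17b, with root-mean-square distances of 0.05, 0.06 and 0.06 over 3 arrays. Nearest to Nppb at 166 were C3ar1, Kctd19 and S100a1, at 0.01, 0.02 and 0.04. Among 15348 genes, 11 lay within 0.1 of Nppa and 54 within 0.1 of Nppb, so 3 arrays leave many genes alike.

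**Figure D5:**
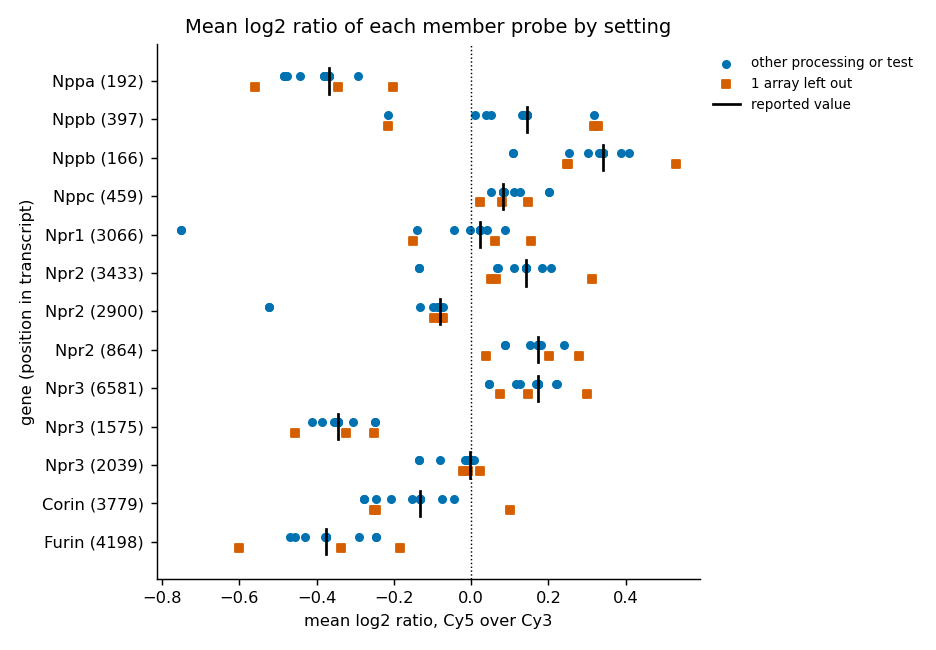
Mean log2 ratio of Cy5 over Cy3 for each of the 13 member probes as reported (black tick), under other processing or tests (blue) and with 1 array left out (orange). Nppa at 192, Furin at 4198 and Npr3 at 1575 stay below 0 in every setting run, Nppb at 166 stays above 0, and Nppb at 397 and Npr1 fall on both sides.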

How the data were processed

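Each array was a two-colour Agilent 60-base whole-mouse-genome array, 3 in all. Per the file headers, the deposited intensity values came from a G2505B scanner read with Feature Extraction 9.1.3.1 for array 1, and a G2505C scanner read with version 10.7.3.1 for arrays 2 and 3. The submitters' processing notes name Agilent Feature Extraction 9.5. The authors' software background-subtracted and dye-normalized the processed intensity. The deposited log10 ratio is its log10 of Cy5 over Cy3, with a deposited p-value per spot, and the series table held the same ratios (largest difference 0).

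Spot means were background-corrected (normexp, offset 50), loess-normalized within arrays with control spots at weight 0, averaged per probe without non-uniform spots (0 member spots), and tested against 0 with limma 3.58.1 in R 4.3.3 (eBayes, two-sided, Benjamini-Hochberg, threshold 0.05). A probe was tested if well above background in 1 channel on all 3 arrays. Saturated meant flagged or within 1% of the scanner's limit, and a probe saturated in both channels on at least 2 arrays got no fold. A member's probes were compared by exact sign-flip permutation tests. Gene lists took 1 probe per gene, the brightest not saturated that way. Symbols were updated through RefSeq accessions and synonyms (GRCm38.p6), for 32745 probes. Sequences are the files' own. Named were all members, Lrrc10, the extremes of each list and the 3 nearest genes to Nppa and Nppb. The clone described as natriuretic peptide receptor 3 was named after its values were seen, as were Rgs2, Pcsk7, Tbx5 and Nkx2-5. Members and lists were chosen with earlier results of these data known. The number of arrays limits the precision. The fit was tested on simulated data. Alternatives covered background correction, normalization, scaling, filters, test, array weights, intensity trend, scanner version, saturated and non-uniform spots, and leaving out each array.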

Additional observations from a re-analysis of the deposited data

How the results depend on the processing

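The 13 member probes gave 207 values over up to 16 alternatives each: 191 kept direction and side of the threshold, 2 newly passed it (Nppa and Furin without replicate 3) and 14 reversed, in 5 probes with no call. At an unadjusted p under 0.05 the methods' t-test put 1 member probe, Npr2 at 2900, lower and 0 higher. Npr1 became -0.75 with the software's processed signals and with the series value table, -0.14 without background correction, -0.00217 when scaled between arrays, -0.0449 with scanner version as a block and -0.15 without replicate 2 (-0.15 to 0.16 with 1 replicate left out). Npr2 at 3433 became -0.13 with the software's signals and the series table. Npr3 at 2039 became 0.00743 with array weights, 0.000758 with the block and 0.0224 without replicate 3 (-0.0209 to 0.0224 with 1 left out). Nppb at 397 became -0.21 with saturated spots missing and without replicate 3 (-0.21 to 0.33 with 1 left out), and Corin 0.10 without replicate 3 (-0.25 to 0.10). The calls over all probes, 395 higher and 1 lower, became 0 and 0 with the software's signals, the series table, scaling between arrays and the methods' t-test (1529 higher and 1103 lower at an unadjusted p under 0.05 by the t-test, 1307 and 594 by limma on the software's signals, 1960 and 848 when scaled), 1 and 0 without background correction and with the block, and 145 and 0 without the filter. The lower calls were 2 with median centring and with a signal of 20 in both channels, 11 with array weights, 3 with the trend and 5 with saturated spots missing. Leaving out 1 replicate gave 1 to 1540 higher and 0 to 248 lower, the highest without replicate 3. Member probes called lower were 0 to 2 and pathway genes called higher 0 to 1 (Gucy2c, without replicate 3). The pathway median became -0.16 with the software's signals and the series table. Lrrc10 stayed above 0 and lost its call with the software's signals and the series table (5.21, adjusted p 0.270), scaling (4.62, 0.424) and the t-test (4.41, 0.504). Member probes past the 1.2-fold rule in the lower direction were 1 without the p criterion and 0 to 2 with 1 replicate left out: Npr1 and Npr2 at 2900 without replicate 2, Nppa without replicate 3. The rule is looser on 2 arrays, and the share of all probes past it there is not given, so these counts cannot be read against a background. Npr1 rests in part on array 3, where its Cy5 signal of 7.29 was not well above background. The causes were not tested. No paired analysis was possible because the labels give 1 group, and each ratio already sets both channels of 1 array against each other. Saturation limits Nppa, Ankrd1 and Nppb at 397, and low signal limits Npr1, Nppc and the second Furin probe.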
